A study of Mus musculus with 6 samples.

Results

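The transcripts described here encode the 4 activators of the molecular clock. These are Arntl (the symbol of Bmal1 in the table), its paralog Arntl2, Clock, and Npas2, the paralog of Clock. They were taken by gene name from a table of 55487 genes, and each name matched 1 row, so that all 4 were found. RNA was measured by poly(A) RNA-seq in vascular endothelial cells (VECs) sorted from mouse retinas at postnatal day 7.5 (P7.5), in 3 libraries labelled Bmal1;CKO and 3 control libraries. The study states that the retinas were taken at noon, so every level below is that of a single time of day. Control animals were tdTomato FL/+;Pdgf-icreER and mutant animals were Bmal1 FL/FL;tdTomato FL/+;Pdgf-icreER, so the controls carried Cre and the reporter without the floxed Bmal1 allele. Tamoxifen was given to the pups of both groups on the days from P0.5 to P2.5. The Pdgf-icreER transgene places GFP and a tamoxifen-inducible Cre under Pdgf promoter control, tdTomato reports recombination at its own locus, and cells positive for both colors were collected. Neither color reads the Bmal1 allele itself.

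BMAL1 and CLOCK belong to the bHLH-PAS family of transcription factors, which bind DNA in pairs, and BMAL1:CLOCK dimers activate genes that carry an E-box, the letters CACGTG. Among these targets are the Period and Cryptochrome genes, whose products repress the dimer, and the REV-ERB genes Nr1d1 and Nr1d2, whose products repress Arntl in turn through ROR elements, while the ROR factors activate it. NPAS2 can stand in for CLOCK, and BMAL2, the product of Arntl2, is a close relative of BMAL1 that also pairs with CLOCK. In blood vessels the clock has been linked to the growth, repair and tone of the vessel wall.

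The sequence before the start of Arntl is shown because Arntl is both the deleted gene and a target of the REV-ERB and ROR factors. The most downstream annotated start of Clock, the only one with a match to the core of the ROR element, is shown beside it. The starts of Ciart and Cry1, repressors of the dimer, are shown as genes that hold the E-box. All are RefSeq sequences on GRCm38.p6, written 5′ to 3′ on the strand of the gene, with capitals for CACGTG, for its variants CACGTT and AACGTG, and for AGGTCA (the core of the ROR element) or TGACCT, the same core on the other strand.

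Arntl, 250 bases before the start, chr7:113207215-113207464, plus strand: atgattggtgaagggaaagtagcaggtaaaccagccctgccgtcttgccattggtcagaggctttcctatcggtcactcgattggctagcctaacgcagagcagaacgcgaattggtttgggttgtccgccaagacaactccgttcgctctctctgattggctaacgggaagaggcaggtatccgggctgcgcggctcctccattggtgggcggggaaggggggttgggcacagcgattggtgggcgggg

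Arntl, 30 bases in the annotated untranslated part of the first exon, chr7:113207530-113207559, plus strand: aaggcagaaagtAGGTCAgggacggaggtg

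Clock, 250 bases before the most downstream start in the table, chr5:76303503-76303752, minus strand: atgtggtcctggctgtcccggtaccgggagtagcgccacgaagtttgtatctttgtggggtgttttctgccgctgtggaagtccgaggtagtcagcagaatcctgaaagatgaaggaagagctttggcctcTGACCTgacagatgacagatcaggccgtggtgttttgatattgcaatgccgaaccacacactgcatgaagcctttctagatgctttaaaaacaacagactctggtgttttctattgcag

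Ciart, 250 bases before the start, chr3:95882229-95882478, minus strand: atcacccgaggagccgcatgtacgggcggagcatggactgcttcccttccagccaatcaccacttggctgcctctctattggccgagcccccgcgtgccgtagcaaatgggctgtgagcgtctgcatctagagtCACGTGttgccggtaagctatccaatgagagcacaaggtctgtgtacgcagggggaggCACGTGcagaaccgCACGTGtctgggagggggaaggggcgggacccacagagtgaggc

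Cry1, 250 bases before the start, chr10:85185055-85185304, minus strand: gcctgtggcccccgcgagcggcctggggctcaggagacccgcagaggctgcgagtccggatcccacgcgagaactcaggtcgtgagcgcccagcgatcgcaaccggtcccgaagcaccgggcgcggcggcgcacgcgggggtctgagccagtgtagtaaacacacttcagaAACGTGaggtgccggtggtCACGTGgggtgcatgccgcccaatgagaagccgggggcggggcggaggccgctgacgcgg

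None of the 4 activators had CACGTG in a window from 250 bases before to 50 bases after an annotated start, and 8.09% of the 27025 genes in the table had it in at least 1 window (7.15% of the 32851 windows). AGGTCA was found for 2 of the 4 activators, Arntl and Clock, and for 18.1% of all genes (16.26% of the windows). A gene with several annotated starts, such as Clock, has more windows in which a match can fall. The match in Arntl lay 32 bases after the more downstream of its starts, and the match in Clock lay 119 bases before the start at base 76303502. The windows at the other annotated starts of Clock, at bases 76304792 and 76304548, held no AGGTCA. Of 18 genes listed as E-box targets, 14 had a window and 6 of those had CACGTG, with 3 matches in Ciart alone. The motifs were searched on both strands, and a match describes letters in a window, not binding.

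The libraries held 71145068 to 104017800 reads on genes, and values are normalized counts, which are reads divided by the size factor of the library (0.711 to 1.40). Control library 1 and Bmal1;CKO library 4 had the fewest genes with a read, 21598 and 22142, and the others had 23889 to 27904. Of 14 endothelial markers, 13 had at least 10 reads in every library, and Slco1a4, a transporter of brain and retinal endothelium, was at 0 in control library 3. The summed level of the 14 markers was 189377 to 365047 in control and 113507 to 236881 in Bmal1;CKO libraries, and 13 of the 14 had the lower mean in Bmal1;CKO. All 10 microglia and macrophage markers had at least 10 reads in every library, none was at 0, and their summed level was 1457307 to 4313189 in control and 2111904 to 4207927 in Bmal1;CKO, so transcripts of another cell type were present in every library. The median normalized count of these markers, not divided by gene length, was 55934.3 to 138431.3 over the libraries. That of the rod markers was 16782.6 to 74441.9, and that of the endothelial markers 2251.3 to 7534.3. The sums of 12 rod markers were 729113 to 918658 and 505880 to 864457 with none at 0. A lower mean in Bmal1;CKO was also found for 11 of the 12 rod and all 8 pericyte markers. The summed pericyte level was 2638, 7668 and 49143 in control libraries 1, 2 and 3, so control library 3 stood far above the others. It was 4432 to 8972 in Bmal1;CKO libraries. In the log2 fits described below, 5 of the 8 pericyte markers had a higher and 3 a lower fitted value in Bmal1;CKO. Of the 10 microglia and macrophage markers, 9 had the higher mean, as did 6 of 8 cone and 7 of 8 Muller glia markers. Xist, transcribed from the inactive X chromosome, was 2.78 to 6.15 in control and 438.8 to 2491.8 in Bmal1;CKO libraries, and the Y-linked gene Ddx3y was 1060.3 to 1395.7 in control and 108.3, 0 and 381.4 in Bmal1;CKO libraries 4, 5 and 6, so that sex and genotype cannot be told apart, and Bmal1;CKO libraries 4 and 6 held both kinds of transcript.

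Arntl, the gene targeted in the mutant animals, was measured first as a check of the labels. It is on chromosome 7 from 113207465 to 113314126 on the plus strand (GRCm38), spans 106662 bases, and has 6 annotated transcripts with up to 21 exons. Its normalized count was 1700.4, 3489.2 and 2928.0 in control libraries 1, 2 and 3, from 1382, 3760 and 4098 reads. In the libraries labelled Bmal1;CKO it was 1779.2, 2746.6 and 2415.3 in libraries 4, 5 and 6, from 1265, 3180 and 2932 reads. The lowest of all 6 values was a control library, every Bmal1;CKO value lay within the range of the control values, and the groups overlapped. The control mean was 2705.9 ± 914.8 and the Bmal1;CKO mean 2313.7 ± 491.7 (SD, n = 3 each).

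The log2 fold change of Arntl, Bmal1;CKO against control, was -0.19 ± 0.36 (SE), with limma-trend on log2(normalized count + 1) and an adjusted p of 0.924. Its 95% confidence interval ran from -1.01 to 0.64, which is 49.5% to 156% of the control level, so the libraries could not show a difference within those bounds. A two-sided exact permutation test of the normalized counts gave p = 0.50, where 3 libraries against 3 cannot go below 0.10. The log2 fold change was 0.029 without control library 2 and -0.49 without control library 1. The targeted gene, counted over all its exons, did not separate the libraries by their labels, and each direction below is that of the libraries labelled Bmal1;CKO. The study also measured the Bmal1 transcript in sorted cells by droplet digital PCR, a result not reported here. The deposited value sums the reads of all exons of Arntl, and reads on the floxed part alone were not analysed here. Gm45355, an antisense gene that overlaps exons of Arntl, had 0 reads in every library. The libraries do not mark strand, so this 0 does not show that the antisense RNA was absent.

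The value of Arntl in a mixed sample depends on how many cells of each kind were collected, and fewer cells of a type and less RNA per cell cannot be told apart in bulk libraries. Arntl was 0.226, 0.70 and 0.457 times the median endothelial marker of the same library in control, and 0.420, 1.22 and 0.335 times in Bmal1;CKO libraries 4, 5 and 6. The highest ratio was thus in a Bmal1;CKO library, library 5, which had the lowest endothelial median of the 6 (2251.3, against 4232.0 to 7534.3 in the others). On this scale, chosen after seeing the data, the log2 fold change of Arntl was 0.42 with an adjusted p of 0.860, beside a median of 0.70 over all genes tested, which had been 0.11 on the deposited scale, so Arntl lay below the median gene on both. The part of microglia, of other retinal cells and of sex in the value of Arntl was not tested.

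**Figure D1:**
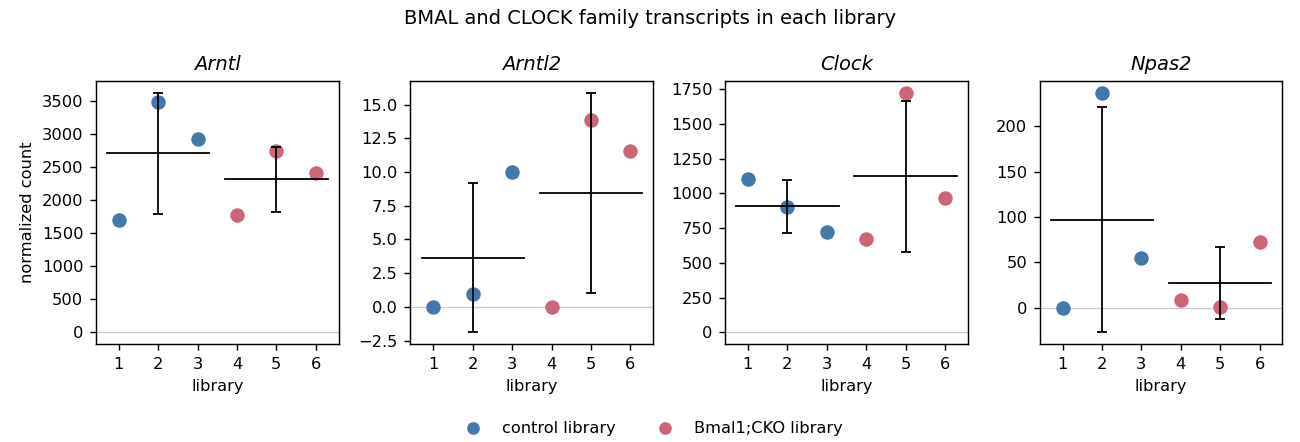
Normalized counts (vertical axis, a separate linear scale per gene) of Arntl, Arntl2, Clock and Npas2 in control libraries 1 to 3 and Bmal1;CKO libraries 4 to 6 (horizontal axis). Points are libraries, horizontal bars are group means and error bars are SD (n = 3); for each gene the 2 groups overlap, and Arntl in Bmal1;CKO lies between 1779.2 and 2746.6, inside the control range.

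Clock, which encodes the partner of BMAL1 in the dimer and is itself a histone acetyltransferase, was the second most abundant of the 4. It is on chromosome 5 from 76209868 to 76304792 on the minus strand, with 6 annotated transcripts. Its normalized count was 1101.2, 902.9 and 718.8 in control libraries 1, 2 and 3 (895, 973 and 1006 reads). In Bmal1;CKO libraries 4, 5 and 6 it was 673.7, 1723.1 and 968.8 (479, 1995 and 1176 reads). Bmal1;CKO libraries held both the lowest and the highest value, and library 5 stood above all others. The means were 907.6 ± 191.3 and 1121.9 ± 541.2 (SD, n = 3 each), the log2 fold change was 0.22 ± 0.44 (SE) with a 95% interval of -0.82 to 1.25, and limma-trend gave an adjusted p of 0.928. Without Bmal1;CKO library 5 the log2 fold change of Clock was -0.15. Relative to the endothelial markers Clock was 0.112 to 0.181 in control, 0.159 and 0.134 in Bmal1;CKO libraries 4 and 6, and 0.765 in library 5. A pseudogene, Ube2n-ps1, lies within Clock on the same strand with 7563 to 13855 reads a library, but it overlaps no exon of Clock.

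Npas2, which encodes the stand-in for CLOCK, varied more among libraries than any other of the 4. It is on chromosome 1 from 39193731 to 39363236 on the plus strand, with 3 annotated transcripts. Its normalized count was 0, 236.6 and 54.3 in control libraries 1, 2 and 3 (0, 255 and 76 reads). In Bmal1;CKO libraries 4, 5 and 6 it was 8.44, 0.864 and 72.5 (6, 1 and 88 reads). Both groups held a library with at most 1 read and a library with over 70 reads, and the 0 of control library 1 allows up to 3 reads, a normalized count of 3.69. The residual SD of Npas2 on the log2 scale was 3.45, larger than that of 97.6% of the genes tested, whereas that of Arntl, 0.44, was larger than that of 28.7%. The means were 97.0 ± 124 and 27.3 ± 39.4 (SD, n = 3 each), and limma-trend gave a log2 fold change of -1.12 ± 2.27 (SE), a 95% interval of -6.40 to 4.17 and an adjusted p of 0.928. The sign rested on single libraries, since the log2 fold change was 0.55 without control library 2, 0.16 with Bmal1;CKO library 5 left out and -3.40 without control library 1.

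Arntl2, which encodes BMAL2, was close to the limit of detection. It is on chromosome 6 from 146796055 to 146833529 on the plus strand, with 9 annotated transcripts. Control libraries 1, 2 and 3 held 0, 1 and 14 reads of it, normalized counts of 0, 0.928 and 10.0. Bmal1;CKO libraries 4, 5 and 6 held 0, 16 and 14 reads, normalized counts of 0, 13.8 and 11.5. Arntl2 passed the filter of 10 reads in 3 libraries with no library to spare, and each group had a library with no read, which allows up to 3 reads, a normalized count of 3.69 in control library 1 and 4.22 in Bmal1;CKO library 4. The log2 fold change was 1.04 ± 1.65 (SE) with a 95% interval of -2.79 to 4.87 and a limma-trend adjusted p of 0.908, so no difference between the groups could be detected with these libraries. Without Bmal1;CKO library 4 it was 2.30, and without control library 1 it was 0.31.

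None of the 4 activators passed an adjusted p of 0.05, an unadjusted p of 0.05 or a full separation of the 3 control from the 3 Bmal1;CKO libraries. Over the 20459 genes tested, limma-trend called 0% at an adjusted p of 0.05, 4.92% (1007 genes) at an unadjusted p of 0.05, and 11.2% had groups that did not overlap. edgeR called 0 genes after adjustment, with 777 at an unadjusted p of 0.05, and DESeq2 called 67. Under the other tools, filters, pseudocounts and scalings, and with each library left out in turn, the adjusted p ranged from 0.669 to 1.00 for Arntl, 0.797 to 1.00 for Clock, 0.588 to 1.00 for Npas2 and 0.613 to 1.00 for Arntl2.

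**Figure D2:**
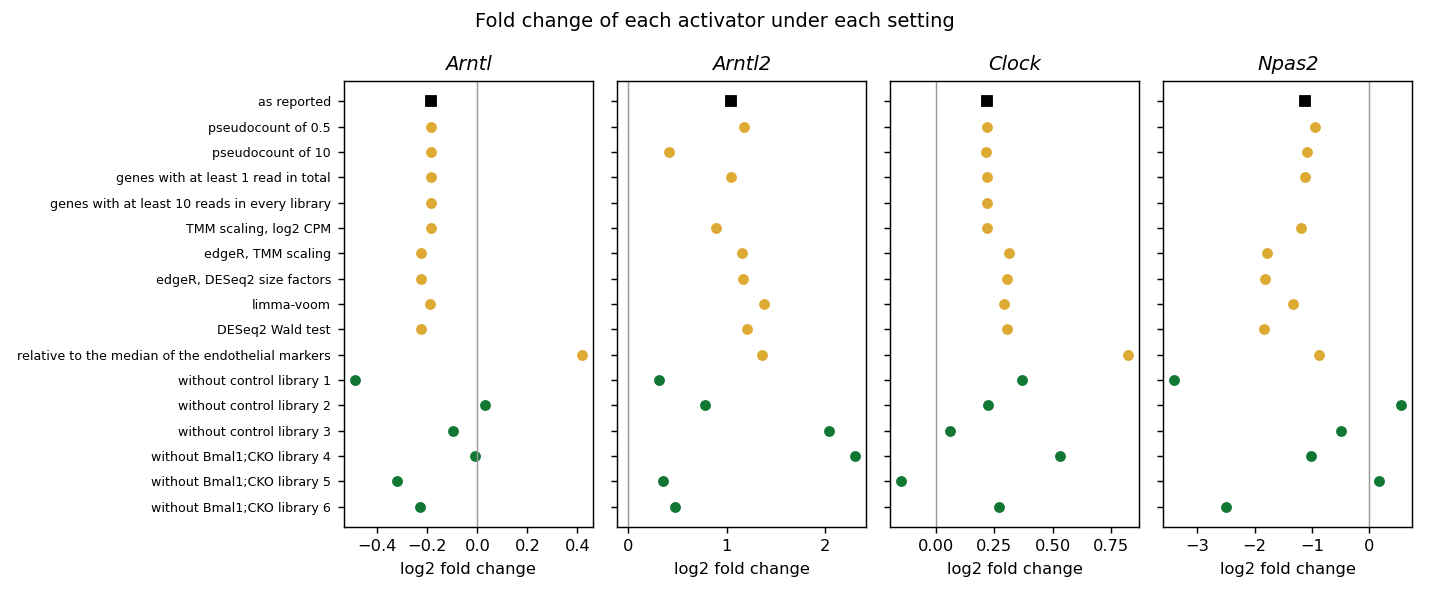
Log2 fold change (horizontal axis, Bmal1;CKO minus control, a separate scale per gene) of each activator under each setting (rows): the value as reported (square), other filters, tools and scalings (yellow) and the libraries left out in turn (green). Arntl runs from -0.49 without control library 1 to 0.42 relative to the endothelial markers, and Npas2 from -3.40 to 0.55; Arntl2 and Npas2 have no value where 10 reads were required in every library.

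To compare the activators with each other, counts were divided by the length of the exons of each gene, and levels below are normalized counts per kilobase. Arntl stood at 226, 464 and 389 in control libraries 1 to 3 and at 237, 365 and 321 in Bmal1;CKO libraries 4 to 6. Clock stood at 80.2, 65.8 and 52.4 in control and at 49.1, 125.5 and 70.6 in Bmal1;CKO libraries. The level of Arntl thus exceeded that of Clock in 6 of 6 libraries with no overlap. Npas2 ranged from 0 to 49.4 and Arntl2 from 0 to 2.43. The level of Clock exceeded that of Npas2 within each of the 6 libraries, although their ranges touched, and the last neighbours in this order, Npas2 and Arntl2, were not separated, since Arntl2 was the higher in Bmal1;CKO library 5 and both were at 0 in control library 1. Among the 17 bHLH-PAS genes tested, Arntl ranked 3, Clock 9, Npas2 14 and Arntl2 17, and among all genes tested Arntl was at percentile 60.2 and Clock at 32.3. The order of the 4 group means was the same in both groups, but without Bmal1;CKO library 6 the mean level of Npas2 in Bmal1;CKO was 0.971, below that of Arntl2 at 1.21. Counting only the exons of protein-coding transcripts (3090 bases of the 7523 for Arntl) raised the mean level of Arntl to 876 in control and 749 in Bmal1;CKO and kept that order. The ranks and percentiles above use the merged exons of all transcripts.

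The ratio of the Arntl level to the Clock level compares the dimer's partners at the RNA level. It is taken within a library and so is free of the scaling between libraries. Transcripts of other cell types were present in every library, so the ratio covers all cells collected and not VECs alone. The size of this ratio and of those below depends on the exon lengths used, here 7523 bases for Arntl and 13727 for Clock. Protein-coding transcripts alone cover 3090 and 9925 bases, which would raise every ratio of Arntl to Clock. With the merged exons that ratio was 2.82, 7.05 and 7.43 in control libraries 1 to 3 and 4.82, 2.91 and 4.55 in Bmal1;CKO libraries 4 to 6. Control libraries held both the lowest and the highest ratio, and the log2 ratio averaged 2.40 ± 0.79 in control and 2.00 ± 0.40 in Bmal1;CKO (SD, n = 3 each). The ratio of Clock to Npas2 was far less steady. It was 1.33 and 4.62 in control libraries 2 and 3 and at least 104-fold in control library 1, where Npas2 was set to 3 reads, and 27.9, 696 and 4.66 in Bmal1;CKO libraries 4 to 6. The value of 696 rests on 1 read of Npas2. Arntl exceeded Arntl2 by 2844-fold and 221-fold in control libraries 2 and 3 and by 150-fold and 158-fold in Bmal1;CKO libraries 5 and 6. It did so by at least 348-fold in control library 1 and at least 319-fold in Bmal1;CKO library 4, where Arntl2 was set to 3 reads.

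**Figure D3:**
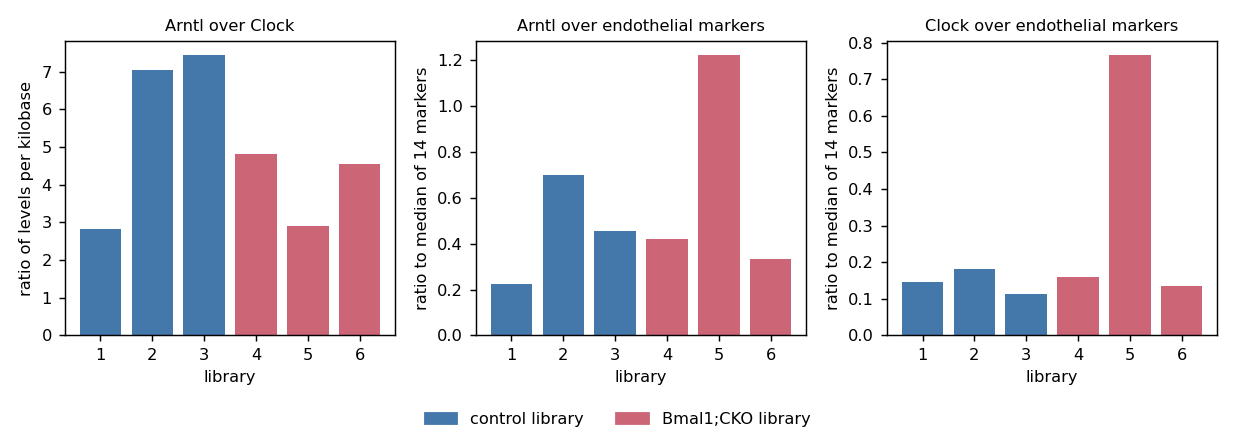
Bars show, for control libraries 1 to 3 and Bmal1;CKO libraries 4 to 6 (horizontal axis), the ratio of the Arntl to the Clock level per kilobase, and the ratios of the Arntl and Clock normalized counts to the median of 14 endothelial markers (vertical axes, unitless, from 0). Library 5 stands out in the last panels, at 1.22 for Arntl and 0.765 for Clock.

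The 4 activators did not vary together in a way that 6 libraries could show. Over the 6 pairs, on log2(normalized count + 1), the strongest relation was that of Arntl and Npas2, with Pearson's r = 0.67 (exact permutation p = 0.160, adjusted p = 0.581) and Spearman's rho = 0.71 (exact permutation p = 0.136, adjusted p = 0.629), and r was 0.40 without control library 1 and Bmal1;CKO library 4. For Arntl and Clock r was 0.12 (exact permutation p = 0.856). For Arntl and Arntl2 r was 0.54 (exact permutation p = 0.281) and turned to -0.86 without those same libraries, so it rested on them.

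Genes whose pattern over the 6 libraries was most like that of each activator were ranked by Pearson's r among 15046 genes with 10 reads in every library. For Arntl these were Mab21l1, a gene of eye development, with r = 0.995, Uevld with r = 0.990 and Fam117b with r = 0.989. Mab21l1 was 5946.5, 13066.7 and 10829.7 in control and 6627.2, 10378.4 and 9387.8 in Bmal1;CKO libraries, the same order of libraries as Arntl. For Clock they were 6430590A07Rik with r = 0.989, Zfp644 with r = 0.984 and Ncoa2 with r = 0.976. Ncoa2, a bHLH-PAS coactivator of nuclear receptors, was highest in Bmal1;CKO library 5 at 2934.1, as Clock was. For Npas2 they were C130046K22Rik with r = 0.990, Ripor2 with r = 0.988 and Dna2 with r = 0.979, and for Arntl2 Nhlrc2 with r = 0.994, Ankrd42 with r = 0.985 and Bicdl1 with r = 0.981. With 6 libraries and this many genes such values are a description. An r over 0.95 was found for 89 genes with Arntl, 19 with Clock, 31 with Npas2 and 22 with Arntl2. Arntl2 held 0, 1 and 14 reads in control and 0, 16 and 14 in Bmal1;CKO libraries. Its r thus rests on counts near the limit of detection.

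**Figure D4:**
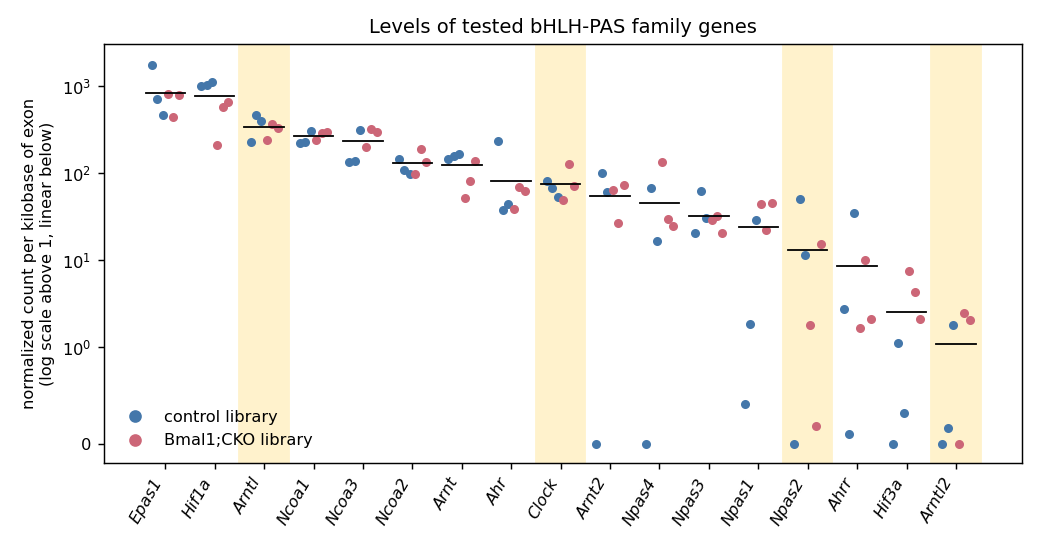
Normalized count per kilobase of exon (vertical axis, logarithmic above 1 and linear below) of the 17 tested bHLH-PAS genes in each library (points, control and Bmal1;CKO in separate colors), ordered by their mean over the 6 libraries (horizontal bars), with the 4 activators shaded. Arntl ranks 3, Clock 9, Npas2 14 and Arntl2 17.

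Other members of the bHLH-PAS family share partners with the activators, and HIF factors, which respond to low oxygen, pair with ARNT, a relative of BMAL1. Of 15 such genes listed, 13 were tested, 8 with a higher and 5 with a lower fitted value in Bmal1;CKO. Their log2 fold changes had a median of 0.23, beside 0.11 for all genes, of which 56.55% had the higher fitted value in Bmal1;CKO, and none passed after adjustment. The groups did not overlap for 3 of the 13, beside 11.2% of all genes tested. Hif1a was 5755.8, 5951.1 and 6447.7 in control and 1233.5, 3366.8 and 3788.6 in Bmal1;CKO, with groups that did not overlap, a log2 fold change of -1.27 ± 0.43 (SE), an unadjusted p of 0.020 and a limma-trend adjusted p of 0.883. Its partner gene Arnt was 1140.6, 1255.5 and 1318.3 against 406.5, 647.8 and 1075.9, with a log2 fold change of -0.91 ± 0.44 (SE) and an adjusted p of 0.883 by limma-trend. Hif3a was low, with 0, 8 and 3 reads in control and 35, 33 and 17 in Bmal1;CKO (log2 fold change 3.24, unadjusted p of 0.039), and 1 of the 6 fits with a library left out kept a p under 0.05. Epas1, the HIF gene most abundant in endothelium, had a log2 fold change of -0.35, and 0.18 without control library 1. Relative to the endothelial markers the log2 fold change was -0.67 for Hif1a (unadjusted p of 0.326) and -0.31 for Arnt (unadjusted p of 0.701), where the median of all genes was 0.70 in place of 0.11.

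The targets of the BMAL1:CLOCK dimer were read beside Arntl. Of 18 E-box targets all were tested, 12 with a higher and 6 with a lower fitted value in the libraries labelled Bmal1;CKO (median log2 fold change 0.21), and none passed after adjustment. An unadjusted p under 0.05 was found for 3 of the 18, beside 4.92% of all genes tested, and 66.67% had the higher fitted value, beside 56.55% of all genes. Nampt, the enzyme that limits NAD recycling, was 4789.9, 4808.7 and 3581.1 in control and 1305.2, 1894.1 and 2502.7 in Bmal1;CKO (log2 fold change -1.25 ± 0.32 (SE), unadjusted p of 0.0052, limma-trend adjusted p of 0.883). It kept an unadjusted p under 0.05 in 15 of 16 alternatives, but not relative to the endothelial markers, where its log2 fold change was -0.64 (p of 0.340) and the median of all genes 0.70. Per2 had 3, 1 and 77 reads in control and 95, 101 and 211 in Bmal1;CKO, with a log2 fold change of 4.00 and an unadjusted p of 0.023 that stayed under 0.05 in 2 of the 6 fits with a library left out. With DESeq2 the log2 fold change of Per2 was 2.72 (unadjusted p of 0.061), and with edgeR and TMM scaling it was 2.69 (unadjusted p of 0.108). Per2 kept an unadjusted p under 0.05 in 8 of 15 alternatives. Ciart, the gene with 3 E-boxes shown above, was 590.6, 439.9 and 342.2 in control and 512.0, 509.6 and 532.2 in Bmal1;CKO, within the control range. Cry1, shown beside it, was 1405.1, 2386.7 and 2039.2 against 1299.6, 1534.0 and 1881.5. The other core targets had log2 fold changes of 0.26 for Per1, 0.17 for Per3, -0.29 for Cry1, 0.26 for Cry2, 2.31 for Nr1d1 and 0.21 for Dbp, each with an unadjusted p over 0.05. The sign for Per1 turned to -0.66 with DESeq2, that for Per3 turned without Bmal1;CKO library 5, and that for Cry2 turned without control library 1. Relative to the endothelial markers Cry1 was 0.31, below the median of all genes on that scale, as it was on the deposited scale. Of the 9 listed repressors of the dimer, 1, Per2, had an unadjusted p under 0.05, beside 4.92% of all genes tested (median log2 fold change 0.21).

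Of the 5 genes for factors that act on the ROR element of Arntl, 3 had a higher and 2 a lower fitted value (median log2 fold change 0.14). Nr1d2, which encodes REV-ERBβ, was 542.6, 1199.9 and 790.2 in control and 253.2, 374.0 and 457.2 in Bmal1;CKO, and the groups did not overlap, as for 11.2% of all genes tested. Its log2 fold change was -1.19 ± 0.50 (SE), with an unadjusted p of 0.045 and a limma-trend adjusted p of 0.883, and 1 of the 6 fits with a library left out kept an unadjusted p under 0.05. Nr1d1, which encodes REV-ERBα, was 17.2, 613.4 and 1081.0 in control and 1158.9, 799.8 and 1585.0 in Bmal1;CKO, and its log2 fold change of 2.31 was 0.48 without control library 1. Of 6 further genes with ROR elements, such as Nfil3, 4 were tested, none had an unadjusted p under 0.05, and their median log2 fold change was 0.38.

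**Figure D5:**
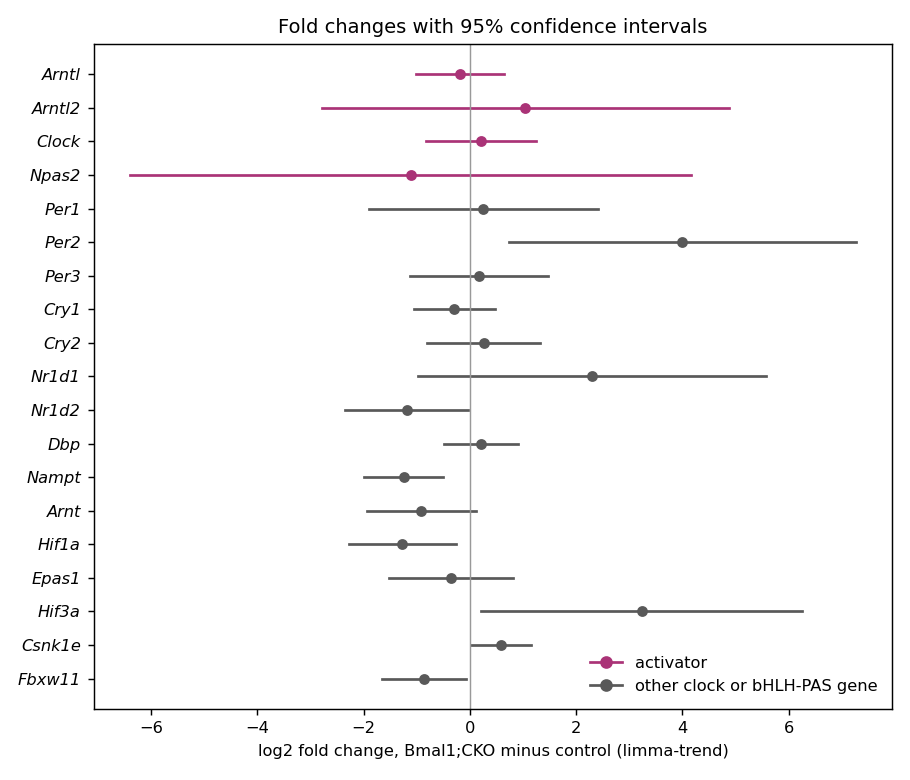
Log2 fold changes (horizontal axis, Bmal1;CKO minus control, limma-trend) with 95% confidence intervals (lines) for the 4 activators and 15 other clock or bHLH-PAS genes. The interval of Arntl, -1.01 to 0.64, and those of Arntl2, Clock and Npas2 hold 0, and no gene shown passed after adjustment.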

How the data were processed

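Amplification of VEC RNA used Smart v4, and libraries used Nextera XT, neither of which marks strand. Per the labels and the study's methods, the authors used FastQC, Trimmomatic, Bowtie (mm10, GRCm38), featureCounts and DESeq2. The deposited table gives for every gene a signal in each library: its count over the size factor of that library; the authors' own fold changes and p-values in it were not used. Dividing by the smallest step gave whole reads (within 0.01) for 100% of the values. Column numbers disagree with the replicate numbers of the labels, so columns were used as replicates of their genotype only, and the study's methods give 3 animals per genotype as biological replicates. Bmal1;CKO libraries 4 and 6 held both Xist and Y-linked transcripts, and whether each library came from a single animal was not tested.

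Genes with 10 reads in 3 libraries (20459) were tested with limma-trend (limma 3.58.1, R 4.3.3) on log2(normalized count + 1), genotype as the only term and Benjamini-Hochberg adjustment at 0.05, after a test on simulated data. Exact permutation tests were used for single values. edgeR 4.0.16, limma-voom and DESeq2 1.42.0 were alternatives on the recovered reads. A 0 was read as up to 3 reads, a limit that covers counting error only. Coordinates come from the table, 1 added to each start, with transcripts from GENCODE M21; exons of all transcripts were merged for length. Promoter windows are RefSeq's.

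The activators and lists were chosen with earlier results of these data known. Named were the 4 activators; Per1 to Per3, Cry1, Cry2, Nr1d1, Nr1d2, Dbp, Arnt, Hif1a and Epas1; up to 6 genes per list at an unadjusted p under 0.05; and the 3 genes most like each activator. Ciart and Slco1a4 were named after their values were seen. Tables were handled in pandas 2.3.3 and scipy 1.17.1, and plots drawn in matplotlib 3.10.9, under Python 3.11.15.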

Additional observations from a re-analysis of the deposited data

How the results depend on the processing

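Arntl2 rested on at most 16 reads in a library, Npas2 on at most 255, and Clock and Arntl on at least 479 and 1265; the part of depth in their spread was not tested. No paired analysis was possible because the columns carry numbers that disagree with the replicate numbers of the labels. No alternative brought any of the 4 activators past the threshold. Leaving out each library in turn gave log2 fold changes of -0.49 to 0.029 for Arntl, 0.31 to 2.30 for Arntl2, -0.15 to 0.53 for Clock and -3.40 to 0.55 for Npas2. For Arntl the sign turned without control library 2. The same procedure gave -0.52 to 1.37 for Per1, -0.11 to 0.63 for Per3, -0.28 to 0.56 for Cry2 and -0.76 to 0.18 for Epas1. Per1 was -0.65 with edgeR and TMM scaling, -0.66 with edgeR and size factors and -0.66 with DESeq2. The normalized counts of Per1 were 1971.1, 142.9 and 260.8 in control and 514.8, 515.6 and 475.3 in Bmal1;CKO libraries. Control library 1 held the highest of these, and the log2 fold change of 1.37 was that without it. The cause of the turned sign was not tested. Scaling to the endothelial markers moved the median of all genes from 0.11 to 0.70; Arntl was then 0.42, Cry1 0.31 and Epas1 0.26, each below that median as they were below the median before, so these signs follow the common shift.

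The number of genes called over the whole table, 0 as reported, was 1 with genes of at least 1 read in total, 1 with genes of 10 reads in every library, 67 with DESeq2, 5 relative to the endothelial markers, and 0 to 6 with a library left out (6 without control library 1). At an unadjusted p of 0.05 it was 444 to 2444 with a library left out (444 without Bmal1;CKO library 5, 2444 without control library 3), beside 1007.

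The median of the other bHLH-PAS genes was -0.35 with 10 reads required in every library, and -0.011 to 0.47 with a library left out. The latter range was -0.049 to 0.26 for the E-box targets, -0.084 to 0.24 for the repressors and 0.041 to 0.30 for the coactivators. The mean level per kilobase of Arntl was 677 (control) and 579 (Bmal1;CKO) with the longest transcript as length, and 876 and 749 with exons of protein-coding transcripts, a length chosen after seeing the data. With those lengths Arntl2 in Bmal1;CKO was 2.82 and 2.89, and Clock in control 93.2 and 91.5. Relative to the endothelial markers the Bmal1;CKO level was 442 for Arntl and 129.8 for Clock. Leaving out a library gave 307.6 to 426.5 (control) and 278.8 to 343.1 (Bmal1;CKO) for Arntl, and 59.1 to 73.0 and 59.8 to 98.1 for Clock, 5.67 to 30.4 and 0.971 to 8.45 for Npas2, and 0.0815 to 0.960 and 1.01 to 2.23 for Arntl2. With CACGTT and AACGTG counted as well, 2 of the 4 genes acting on the ROR element that had a window held an E-box, beside 0. CACGTT or AACGTG was found for 5.44% of all genes. In Rorb the match lay before the start at base 19001117, and the window at base 19111196 held none.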

Other observations

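Genes that modify the dimer were also counted. Of 14 coactivators and chromatin partners of BMAL1 and CLOCK, such as Crebbp and Ep300, 9 had a higher and 5 a lower fitted value in the libraries labelled Bmal1;CKO, none had an unadjusted p under 0.05, and the median log2 fold change was 0.24, beside 0.11 and 56.55% higher for all genes tested. Of 15 kinases and ubiquitin ligases that act on clock proteins, 6 were higher and 9 lower, with a median of -0.06, and none passed after adjustment. Csnk1e, which encodes casein kinase 1 epsilon, a kinase of the Period proteins, was 9151.7, 6347.3 and 9304.2 in control and 12246.0, 12169.8 and 12183.7 in Bmal1;CKO (log2 fold change 0.58 ± 0.24 (SE), unadjusted p of 0.044, limma-trend adjusted p of 0.883). The spread of its 3 Bmal1;CKO values was small, with an SD of 40.6 beside 1664.9 in control. Fbxw11, part of a ubiquitin ligase for the Period proteins, was 3469.7, 3192.2 and 5095.1 in control and 1703.2, 1810.4 and 3076.0 in Bmal1;CKO (log2 fold change -0.86 ± 0.34 (SE), unadjusted p of 0.037, limma-trend adjusted p of 0.883). Of the 15 genes, 2, Csnk1e and Fbxw11, had groups that did not overlap, beside 11.2% of all genes tested. Relative to the endothelial markers the log2 fold change was 1.185 for Csnk1e and -0.25 for Fbxw11, where the median of all genes was 0.70. With a library left out, 2 of 6 fits for Csnk1e and 3 of 6 for Fbxw11 kept an unadjusted p under 0.05.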
